A study of Mus musculus with 27 samples.

Results

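The genes examined here encode 10 proteins of the Z-disc and the costamere of skeletal muscle, namely Smpx, Pdlim3, Actn2, Actn3, Ldb3, Myoz1, Myoz2, Myot, Csrp3 and Tcap. They were taken by symbol and make up 10 of the 24825 genes in the deposited expression values. Smpx and Pdlim3 were chosen by their log2 changes between constructs in these same samples, where they were among the strongest, so their values between constructs are described without a test. The other members were tested, and all counts between constructs refer to those 8. RNA-seq of polyadenylated RNA was performed in C2C12 cells, an established mouse myoblast line, in 9 groups of 3 replicates each. The cells carried a control construct, full-length NFIA (a transcription factor of the nuclear factor I family) or the Δpro#3 mutant (NFIA without a short C-terminal stretch called the pro#3 domain). Each of these was sampled as myoblasts (day 0), after 7 days of differentiation (day 7), and on that day with 10 µM forskolin for the last 4 h. Constructs were introduced with retrovirus, and every group at day 7, control cells included, had been exposed to the same adipogenic cocktail with rosiglitazone. Forskolin raises intracellular cyclic AMP. No source says that the replicates came from separate transductions, so the p-values measure the spread between these samples only.

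The members differ in their place in the muscle sarcomere. In the mm9 assembly (NCBIM37, GENCODE vM1 annotation), the alpha-actinins Actn2 and Actn3, of which Actn3 is the form of fast fibers, lie at chr13:12361693-12433027 and chr19:4861223-4877909. The PDZ-LIM proteins that bind alpha-actinin are Ldb3 (also called ZASP or Cypher), at chr14:35339885-35401867, and Pdlim3 (also called ALP), at chr8:46970839-47004900. The calcineurin-binding myozenins are Myoz1 (fast fibers), at chr14:21468324-21475762, and Myoz2 (slow fibers and heart), at chr3:122709124-122737908. Myot (myotilin, which binds alpha-actinin and filamin) lies at chr18:44493728-44515378. The LIM protein Csrp3 (also called MLP) lies at chr7:56085768-56103400, and Tcap (telethonin, which caps the end of titin) at chr11:98245125-98246267. Smpx, the small muscle protein of the costamere, lies at chrX:154136842-154190523. Each value is the sum over all exons of a gene, so isoforms were not resolved.

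The Z-disc is the protein lattice that anchors the thin filaments of neighbouring sarcomeres, the contractile units of striated muscle. Its backbone is alpha-actinin, which cross-links actin, and a set of PDZ, LIM and calcineurin-binding proteins is docked on it. The costamere is the lattice that couples the Z-disc to the membrane and the extracellular matrix. Most of these genes are silent in proliferating myoblasts and are switched on when myoblasts fuse and build sarcomeres.

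The start-site flanks of 5 members are shown. Pdlim3 and Ldb3, expressed already at day 0, can be read beside Smpx, Myoz2 and Csrp3, which were at a few FPKM or less then. RefSeq promoter windows (GRCm38.p6) were matched for 6 of the 10 genes, Smpx, Pdlim3, Actn2, Ldb3, Myoz2 and Csrp3. The 250 bases upstream of the RefSeq start were located in NCBIM37 by exact match and cut at the annotated gene start. Capitals mark E-boxes (CANNTG), the MEF2 site (by name, in its AT-rich consensus), M-CAT elements (CATTCC) and CArG boxes (by name), searched on both strands. All flanks are written 5′ to 3′ on the gene's strand.
Smpx, chrX:154136655-154136841, plus strand: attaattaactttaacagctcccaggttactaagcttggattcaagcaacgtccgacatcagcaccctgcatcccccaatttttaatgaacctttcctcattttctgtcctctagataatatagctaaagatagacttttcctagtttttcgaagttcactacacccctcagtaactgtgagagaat
Pdlim3, chr8:46970591-46970838, plus strand: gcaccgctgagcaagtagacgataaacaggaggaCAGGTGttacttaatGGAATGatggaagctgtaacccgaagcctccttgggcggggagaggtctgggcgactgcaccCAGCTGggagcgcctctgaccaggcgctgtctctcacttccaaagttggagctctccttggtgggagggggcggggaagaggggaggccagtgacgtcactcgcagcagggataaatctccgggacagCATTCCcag
Myoz2, chr3:122737909-122738155, minus strand: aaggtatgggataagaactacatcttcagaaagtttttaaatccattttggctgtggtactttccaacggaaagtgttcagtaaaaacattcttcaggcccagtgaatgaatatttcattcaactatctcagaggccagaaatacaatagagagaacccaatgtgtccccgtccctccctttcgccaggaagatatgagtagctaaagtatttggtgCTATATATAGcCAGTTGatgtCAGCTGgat
Csrp3, chr7:56103422-56103671, minus strand: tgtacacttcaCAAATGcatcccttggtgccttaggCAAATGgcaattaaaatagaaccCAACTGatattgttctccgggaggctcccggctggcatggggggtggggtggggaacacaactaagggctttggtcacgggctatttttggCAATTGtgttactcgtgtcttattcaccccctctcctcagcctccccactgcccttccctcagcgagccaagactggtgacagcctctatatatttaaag
Ldb3, chr14:35401868-35402117, minus strand: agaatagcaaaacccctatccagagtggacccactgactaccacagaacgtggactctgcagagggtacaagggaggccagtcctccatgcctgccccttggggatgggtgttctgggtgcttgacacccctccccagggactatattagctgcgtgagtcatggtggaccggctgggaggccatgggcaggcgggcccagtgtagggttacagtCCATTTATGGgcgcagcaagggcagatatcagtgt
Pdlim3 had E-boxes at -216 and -139 (counted from the RefSeq start) and M-CAT elements at -201 and -11, and Myoz2 had E-boxes at -22 and -12 beside a MEF2 site at -33. Csrp3 had 4 E-boxes. The Actn2 window, not printed, had E-boxes at -245, -84 and -48, and Actn2 was low at day 0 as well. The Ldb3 flank held a CArG box and no E-box, and the Smpx window matched none of these letters. Among all 32851 windows of this length, 66.2% held an E-box, 12.6% an M-CAT element, 2.92% a MEF2 site and 1.47% a CArG box, so E-boxes are common by their letters alone. The NFI half-site TTGGCA was found in 12.3% of all windows and in 1 of the printed flanks, that of Csrp3 at -104, where it overlaps an E-box by 2 bases. These are matches of letters and not measured binding sites.

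The deposited values are FPKM, which relates the fragments of a gene to its length and to all fragments of the sample. The files held 9567769 to 27230965 fragments per sample (median 17707223). Nfia, the introduced gene, was at 0.0885 to 7.35 FPKM in the 9 control samples, at 225 to 594 FPKM in cells with full-length NFIA and at 262 to 480 FPKM in Δpro#3 mutant cells, so no sample overlapped between control and construct. The mutant and full-length NFIA differed in Nfia level as well, with the mutant higher in every sample at day 0 (397 to 423 against 225 to 250 FPKM) and lower in every sample after forskolin (262 to 344 against 497 to 594 FPKM). The part of this difference in the comparisons of the mutant with full-length NFIA was not tested. The value of 7.35 FPKM was control replicate 2 at day 0, whose members were not set apart from the other controls. The summed level of 8 muscle markers at day 7 was 3990 to 4720 FPKM in control, 597 to 846 FPKM with full-length NFIA and 2734 to 3389 FPKM with the mutant. The sum of 8 adipocyte markers was 345 to 381, 13447 to 14932 and 615 to 2021 FPKM in the same order, and the highest mutant sample was replicate 1. Smooth muscle and myofibroblast markers (4 genes) summed to 1262 to 1346, 433 to 618 and 1278 to 1337 FPKM. Of 4 immune markers, 1 had a mean of 0.5 FPKM or more in each group, and Ptprc or Adgre1 was at 0 in all samples of each group. With the mutant neither limma nor limma-voom called any of the 8 muscle markers past 3-fold at day 7. By limma 0.503% of all genes were called lower and 0.933% higher there. Of the 8, 7 had an unadjusted and an adjusted p under 0.05, 4 of them higher and 3 lower than control, with a median log2 change of 0.05, so the lower sum rests on some of the markers. At day 0 the muscle markers summed to 683 to 700, 49.0 to 50.6 and 213 to 220.3 FPKM and the adipocyte markers to 40.0 to 48.5, 432 to 459 and 318 to 335 FPKM in control, full-length NFIA and mutant cells. The muscle and adipocyte sums of both constructs lay outside the control range on both days, and their part in the results below was not tested. Fewer cells of a type and less RNA per cell cannot be told apart in these samples.

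At day 0, 3 of the 10 genes were expressed at a substantial level in control myoblasts and the others were at or below a few FPKM. Pdlim3 was at 125, 119.8 and 119 FPKM, Actn3 at 67.4, 66.2 and 69.2 FPKM and Ldb3 at 15.5 FPKM in each sample. Smpx was at 2.56 ± 0.286 (SD, n = 3), Myoz2 at 2.33 ± 0.385, Csrp3 at 1.60 ± 0.101 and Actn2 at 1.34 ± 0.280 FPKM. Tcap and Myoz1 were below 1 FPKM in all 3 samples, and Myot had no fragment among the 77051420 fragments of the control group, which allows at most 0.0176 FPKM (3 fragments over the group, counting error only).

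With full-length NFIA, Pdlim3, Actn3 and the low levels of Smpx, Myoz2, Csrp3 and Actn2 were a few percent of control or less, whereas Ldb3 was level. Pdlim3 was at 1.04, 1.16 and 1.79 FPKM in the 3 samples with full-length NFIA, 1.10% of control. Actn3 was at 3.13, 3.28 and 3.09 FPKM, 4.69% of control, and its log2 change was -4.04 (SE 0.0403, limma adjusted p = 1.19e-13). The samples of the groups did not overlap in either gene. Smpx gave 1 fragment in the 3 samples against 223 in control, a pooled ratio of 180 with a 95% counting interval of 32 to 7140. Myoz2 gave 0 against 236 fragments, so it was at least 63.5-fold lower at the floor of 3 fragments over the group. Csrp3 gave 1 against 120 fragments (ratio 96.9, interval 17.1 to 3860) and Actn2 gave 3 against 307 (ratio 82.6, interval 28 to 403). Myoz1 gave 0 against 30, at least 8.07-fold lower. Tcap was reduced less in the few fragments it had, 8 against 42, at 27.9% of control. Myot was at or under the floor in both groups. These intervals pool the samples of a group and cover counting error only.

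Ldb3 was at 15.5, 15.2 and 15.9 FPKM with full-length NFIA, overlapping the control samples. Its log2 difference from control was 0.00 with a 95% interval of -0.06 to 0.07. In Δpro#3 mutant cells it was at 21.8, 21.9 and 21.3 FPKM, above every control sample, with a log2 change of 0.46 (adjusted p = 2.13e-07) that did not reach 3-fold.

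In the mutant cells the members with substantial expression in control, other than Ldb3, were also far below control. Pdlim3 was at 3.56, 4.97 and 4.03 FPKM (3.46% of control) and Actn3 at 7.16, 6.66 and 6.48 FPKM (10.0% of control). Actn3 was 0.90 higher than with full-length NFIA on the log2 scale (adjusted p = 1.22e-08), still under 3-fold. Smpx, Myoz2 and Csrp3 were at 0.180 ± 0.082, 0.168 ± 0.0654 and 0.174 ± 0.0999 FPKM. At day 0, 4 of the 8 members had a mean of 0.5 FPKM or more over the 9 samples and could be tested. With full-length NFIA, Actn3 and Myoz2 passed as lower (adjusted p under 0.05 and more than 3-fold in FPKM + 1), where 2.78% of all 12105 genes tested were called lower, and with the mutant Actn3 passed, where 1.32% were. Myoz2 reached the minimum mean only through the control samples, so its call is no independent support, and at a minimum mean of 5 FPKM it was not tested. Csrp3, at 1.60 FPKM in control, cannot reach 3-fold on this scale in either comparison. None of the 4 passed between the mutant and full-length NFIA by limma on log2(FPKM + 1), where 2.05% of genes were called in either direction. All 4 had an unadjusted p under 0.05 there. Limma-voom on fragments called Csrp3 and Myoz2 higher in the mutant, on 12 against 1 and 16 against 0 fragments, and both genes met the minimum mean only through the control samples. All comparisons with control at a time point share the same control samples.

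**Figure D1:**
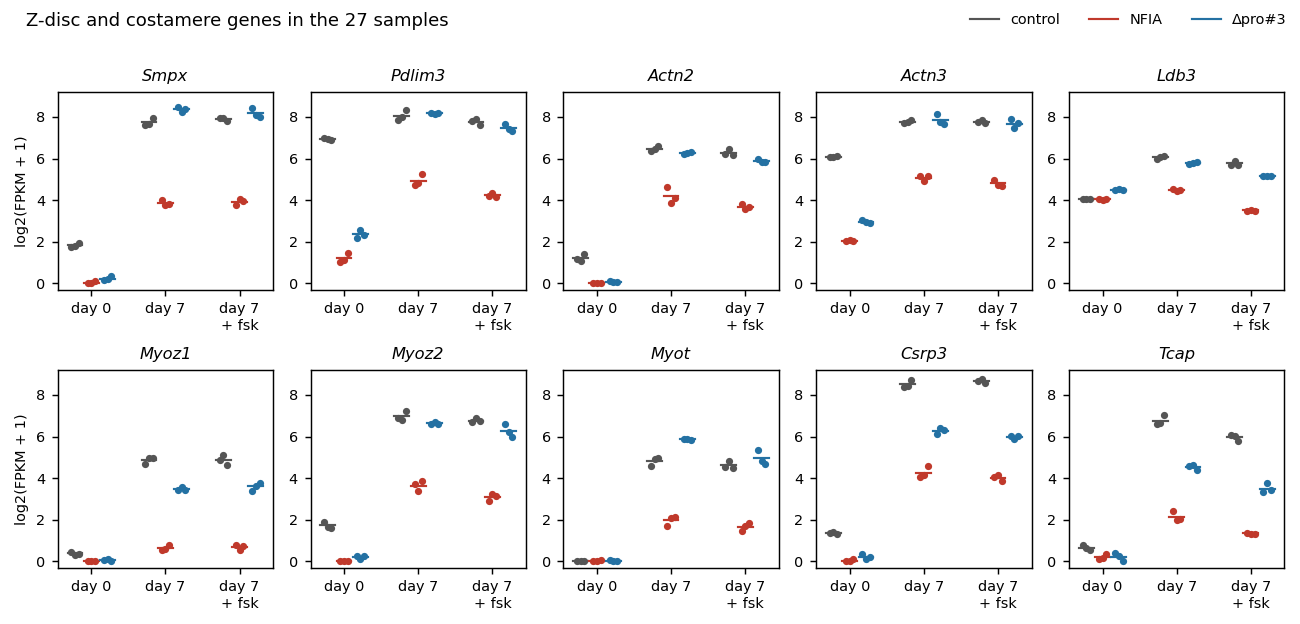
Expression of the 10 genes in all 27 samples, as log2(FPKM + 1), by day and forskolin (fsk). Points are samples, horizontal lines are group means on this scale, and colours mark the construct. At day 0 the 3 groups of Ldb3 lie between 15.2 and 21.9 FPKM, whereas Pdlim3 and Actn3 of both construct groups lie far below control.

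By day 7 all 10 genes were higher in control cells than at day 0, most of them from near 0. Csrp3 rose from 1.60 to 367 FPKM (229-fold), Tcap from 0.581 to 109 FPKM (187-fold), Myoz1 93.6-fold, Smpx 83.9-fold, Actn2 65.4-fold and Myoz2 53.9-fold. Myot rose from no fragment to 2657 fragments over the group, at least 1560-fold. The members already present at day 0 rose least, with Ldb3 4.24-fold, Actn3 3.20-fold and Pdlim3 2.23-fold. Of the 10 genes, 9 passed as higher in control, where 3.65% of all genes tested were called higher. Pdlim3 had an adjusted p of 1.22e-06 and did not reach 3-fold. Actn2, Myoz1, Myot and Tcap, whose mean over the day 0 samples was under 0.5 FPKM, met the minimum mean only through their high day 7 samples, so the count is a description. The members' median log2 change was 5.04, beside -0.06 over all genes tested.

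The set also rose in both construct groups. With full-length NFIA 8 of 10 passed as higher (5.38% of all genes), all but Ldb3 (1.39-fold) and Myoz1, which went from no fragment to 31. With the Δpro#3 mutant 9 of 10 passed as higher (3.91% of all genes), all but Ldb3 (2.49-fold). In both construct groups Smpx, Actn2, Myoz1, Myoz2, Myot, Csrp3 and Tcap were under 0.5 FPKM at day 0 and could be tested only through other samples, so neither count supports more than the levels themselves. Smpx in the mutant cells went from 0.180 to 329.5 FPKM, Actn3 from 6.77 to 234 FPKM and Pdlim3 from 4.19 to 288 FPKM. Actn2 with full-length NFIA went from 3 to 2065 fragments, a pooled ratio of 1030 with a counting interval of 352 to 5000. Thus Actn2 started lower and still ended lower than in control.

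The difference of the day 7 to day 0 change from that in control passed the test for all 8 members with either construct, but so did 71.2% of all genes with full-length NFIA and 44.7% with the mutant. Median-ratio scaling of the samples moved the share of called genes that were lower from 57.8% to 46.9% for the mutant. Its sign turned with a pseudocount of 0.1 or limma-voom in Actn2, Myoz2 and Csrp3 with full-length NFIA and in Myoz1, Myot, Csrp3 and Tcap with the mutant. It is given here for Actn3 and Ldb3, which were above 3 FPKM in every sample at these times and kept their sign. On the log2 scale Actn3 gained more than in control, by 1.36 (adjusted p = 1.11e-07) with full-length NFIA and by 3.24 (adjusted p = 1.66e-11) with the mutant. It started lower with both constructs, and with full-length NFIA it still ended at 15.2% of control at day 7. Ldb3 gained less, with differences of -1.57 (adjusted p = 7.09e-13) and -0.74 (adjusted p = 4.08e-08).

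At day 7 the whole set was lower with full-length NFIA, at 2.05% to 32.7% of control. Of the 8 tested members, 7 passed as lower, where 3.3% of all 12324 genes were called lower, and their median log2 change was -3.09, beside -0.08 over all genes tested. The largest relative deficits were in Myoz1, Tcap and Csrp3. Myoz1 was at 25.1, 30.3 and 30.2 FPKM in control and at 0.485, 0.525 and 0.744 FPKM with full-length NFIA (log2 change -4.22, adjusted p = 1.88e-10). Tcap was at 97.4, 98.3 and 130.6 against 4.41, 2.97 and 3.05 FPKM (-4.62, adjusted p = 1.34e-09). Csrp3 was at 335, 341 and 424 against 15.4, 16.7 and 22.7 FPKM (-4.27, adjusted p = 2.05e-09). In none of these did a sample of one group reach the other.

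Smpx and Pdlim3 were likewise separated from control in every sample. Smpx was at 198, 203 and 242 FPKM in control and 14.9, 12.6 and 13.1 FPKM with full-length NFIA, 6.31% of control. Pdlim3 was at 234, 252 and 323 against 25.5, 27.7 and 36.7 FPKM, 11.1% of control. The deficit of Pdlim3 was thus smaller in relative terms than at day 0, when it stood at 1.10%.

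Myoz2, Myot and the alpha-actinins followed. Myoz2 was at 9.28% ± 1.61 (SD, n = 3) of control, Myot at 10.8% ± 2.28, Actn3 at 15.2% ± 1.53 and Actn2 at 20.4% ± 5.97, and all 4 passed. Ldb3 was the member lowered least, at 22.3, 20.9 and 21.3 FPKM against 61.4, 66.5 and 69.0 FPKM. Its log2 change of -1.57 (adjusted p = 3.14e-09) falls just short of 3-fold, and it passed that limit with a pseudocount of 0.1 (-1.60), with limma-voom (-1.61) and when control replicate 1 (-1.61) or NFIA replicate 1 (-1.59) was left out.

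With the Δpro#3 mutant the set split at day 7. Csrp3 and Tcap were low, Myoz1 was intermediate, the alpha-actinins, Pdlim3, Ldb3 and Myoz2 were near control, and Myot and Smpx were above it. Of the 8 tested members 2 passed, both lower, where 0.503% of all genes were called lower and 0.933% higher. The median log2 change over the 8 was -0.31, beside -0.04 over all genes.

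Csrp3 was at 69.2, 83.4 and 79.3 FPKM in mutant cells, 21.1% ± 2.001 of control, with a log2 change of -2.23 (adjusted p = 2.19e-06). Tcap was at 22.8, 23.8 and 20.1 FPKM, 20.5% ± 1.75 of control, with a log2 change of -2.23 (adjusted p = 2.19e-06). Both genes were in turn above every sample with full-length NFIA. Myoz1 was at 9.77, 10.9 and 9.95 FPKM, 35.9% of control (log2 change -1.39, adjusted p = 2.92e-06), short of 3-fold.

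Myot went the other way. It was at 58.4, 57.0 and 56.8 FPKM in mutant cells against 23.1, 29.2 and 30.7 FPKM in control, 2.07-fold, with a log2 change of 1.04 (adjusted p = 0.000116) that did not reach 3-fold. Smpx was at 358, 297 and 334 FPKM, 154% ± 14.2 of control, and its lowest mutant sample was above the highest control sample. Full-length NFIA and the mutant thus lay on opposite sides of control for both genes.

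The members near control fell into those with and without a detectable difference. Actn2 was at 88.1% of control (log2 interval -0.53 to 0.17, adjusted p = 0.370), its 3 mutant samples just below the lowest control sample. Actn3 was at 108% (interval -0.16 to 0.36, adjusted p = 0.506), with overlapping samples. The Actn3 value leaned on mutant replicate 1, at 283 FPKM beside 216 and 203 FPKM, which was also the sample with the highest adipocyte markers. Without it the log2 difference was -0.04. Ldb3 was at 82.3% ± 1.93 (adjusted p = 0.00232) and Myoz2 at 78.4% ± 3.13 (adjusted p = 0.0474), both passing the p-value and not 3-fold. Pdlim3, at 289.8, 279.6 and 294 FPKM, lay within the control range of 234 to 323 FPKM.

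Compared with full-length NFIA directly, 7 of the 8 members were called higher in the mutant at day 7, where 2.6% of all genes were. Ldb3 was the exception at 2.51-fold. Myot was 19.2-fold, Myoz1 17.5-fold, Myoz2 8.45-fold, Actn3 7.12-fold, Tcap 6.40-fold, Actn2 4.31-fold and Csrp3 4.24-fold higher in mean FPKM. Smpx, given without a test, was 24.4-fold and Pdlim3 9.61-fold higher.

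**Figure D2:**
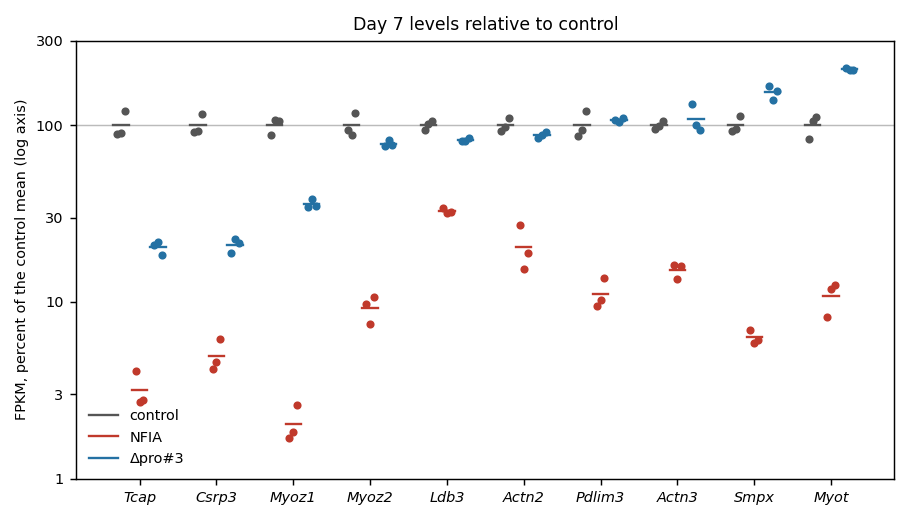
FPKM at day 7 as a percentage of the control mean, on a log axis, for the 10 genes ordered by their level in Δpro#3 mutant cells. Points are samples, short lines are group means, and the grey line marks 100%. All points of full-length NFIA lie below 35%, while those of the mutant range from 18.5% (Tcap) to 211% (Myot).

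The balance within the paired families was compared as the ratio of FPKM, which is already per length. For the alpha-actinins, Actn3 exceeded Actn2 in every sample at day 7. The ratio of Actn3 to Actn2 fell within 2.38 to 2.55 in control, 1.48 to 2.15 with full-length NFIA and 2.54 to 3.84 with the mutant. The full-length NFIA samples were all below control, and the mutant overlapped control at 2.54 and 2.55. After forskolin the ratio was 2.64 to 2.99 in control, 2.10 to 2.39 with full-length NFIA and 3.10 to 3.79 with the mutant, without overlap between the 3 groups. At day 0 control myoblasts had a ratio of 51.8 ± 9.24, since Actn2 was nearly off, and the ratio was not formed in the construct groups, where Actn2 had fewer than 20 fragments. On FPKM + 1 the day 0 ratio of control was 29.6.

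For the myozenins, Myoz1 was the lower gene in every sample at day 7, with and without forskolin. Its ratio to Myoz2 at day 7 was 0.212, 0.273 and 0.205 in control, 0.102, 0.107 and 0.103 with the mutant and 0.0399, 0.0558 and 0.0558 with full-length NFIA, with no overlap between the 3 groups. After forskolin the means were 0.265 ± 0.0336, 0.154 ± 0.0540 and 0.0851 ± 0.0273, and the mutant (lowest 0.0986) overlapped full-length NFIA (highest 0.112). With 1 added to both FPKM values, full-length NFIA was at 0.127 and the mutant at 0.113 at day 7, so the order of these groups depends on how the few fragments of Myoz1 are treated (31 over the group with full-length NFIA). With 3 samples per group an exact permutation test cannot go below a 2-sided p of 0.1, and none was run.

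**Figure D3:**
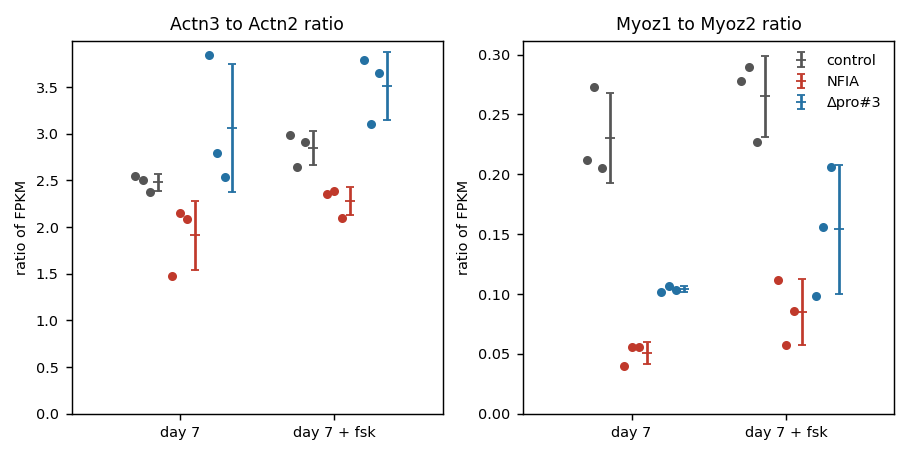
Ratios of FPKM within the alpha-actinin pair (left) and the myozenin pair (right) at day 7 without and with forskolin (fsk). Points are samples, and bars beside them give the mean and SD of 3 samples. The Myoz1 to Myoz2 ratio at day 7 is 0.23 in control, 0.104 in the mutant and 0.0505 with full-length NFIA.

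Forskolin for 4 h changed the set modestly, and all changes that passed were decreases. In control cells 2 of the 10 genes passed at an adjusted p under 0.05, Tcap and Ldb3, where 13.5% of all 12245 genes were called lower. Tcap was at 97.4, 98.3 and 130.6 FPKM without and 65.8, 64.0 and 54.6 FPKM with forskolin, with a log2 change of -0.81 (SE 0.135, adjusted p = 0.000385). Ldb3 went from 65.6 ± 3.91 to 53.8 ± 4.45 FPKM (-0.28, adjusted p = 0.00149). The Tcap samples did not overlap between treatments, nor did those of Ldb3.

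With full-length NFIA 5 of 10 passed as lower, Pdlim3, Actn2, Ldb3, Myoz2 and Tcap, where 41.5% of all genes were called lower, so that the share is close to the background. The median log2 change of all genes was itself -0.15 there, beside -0.42 for the members. After median-ratio scaling of the samples, which brings the median of all genes to -0.04, the same 5 genes passed, where 28.5% of all genes were called lower, with log2 changes of -0.56 (Pdlim3), -0.39 (Actn2), -0.86 (Ldb3), -0.43 (Myoz2) and -0.72 (Tcap). That scaling moved the share of called genes that were lower from 75.0% to 56.1% with full-length NFIA and from 65.7% to 48.3% in control.

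With the mutant 5 of 10 passed as lower, Pdlim3, Actn2, Ldb3, Myot and Tcap, where 23.9% of all genes were. Myot fell from 57.4 ± 0.876 to 30.4 ± 7.74 FPKM (log2 change -0.92, adjusted p = 0.000285) and Pdlim3 from 288 ± 7.54 to 175 ± 20.03 FPKM (-0.72, adjusted p = 0.000354). Actn2 (-0.39, adjusted p = 0.0341) had an adjusted p of 0.0561 to 0.0968 when any 1 of mutant replicates 1, 2 and 3 without forskolin or 2 and 3 with forskolin was left out, of 0.0601 after scaling and of 0.0648 with no filter. Myoz2 (-0.37, adjusted p = 0.0528) passed with limma-voom (0.0194), at a minimum mean of 5 FPKM (0.0461) and in some fits without 1 sample (lowest 0.00636). Smpx, Actn3, Myoz1 and Csrp3 did not pass in any of the 3 cell types. Csrp3 in the mutant (-0.31, adjusted p = 0.0601) passed with only the groups compared (adjusted p = 0.0279) and with limma-voom (0.0164), and Actn3 with full-length NFIA (-0.27, adjusted p = 0.0748) passed with only the groups compared (0.0472). Leaving out 1 sample brought Smpx (mutant), Actn3 (full-length NFIA) or Csrp3 (either construct) under 0.05 in some cases. The 95% interval of Myoz1 in control was -0.25 to 0.25.

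The decrease of Ldb3 was larger with the constructs than in control. Its log2 change was -0.28 in control, -0.98 with full-length NFIA (adjusted p = 6.81e-10) and -0.62 with the mutant (adjusted p = 3.10e-07). The difference from control was -0.70 for full-length NFIA (95% interval -0.87 to -0.53, adjusted p = 6.76e-06) and -0.34 for the mutant (interval -0.51 to -0.17, adjusted p = 0.0189). The mutant difference was lost without control replicate 1 at day 7 (-0.29, adjusted p = 0.0589). Of the 8 members Ldb3 alone passed this test for either construct in the main fit, where 21.5% (full-length NFIA) and 2.5% (mutant) of all genes were called lower. For full-length NFIA 1 of 8 is below the share of all genes. Scaling moved the share of called genes that were lower from 70.1% to 54.7% for full-length NFIA. For Myot in the mutant the difference was -0.72 with an adjusted p of 0.0790. It passed with limma-voom (-0.755, adjusted p = 0.0234) and without the first mutant sample with forskolin (-0.91, adjusted p = 0.0105).

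**Figure D4:**
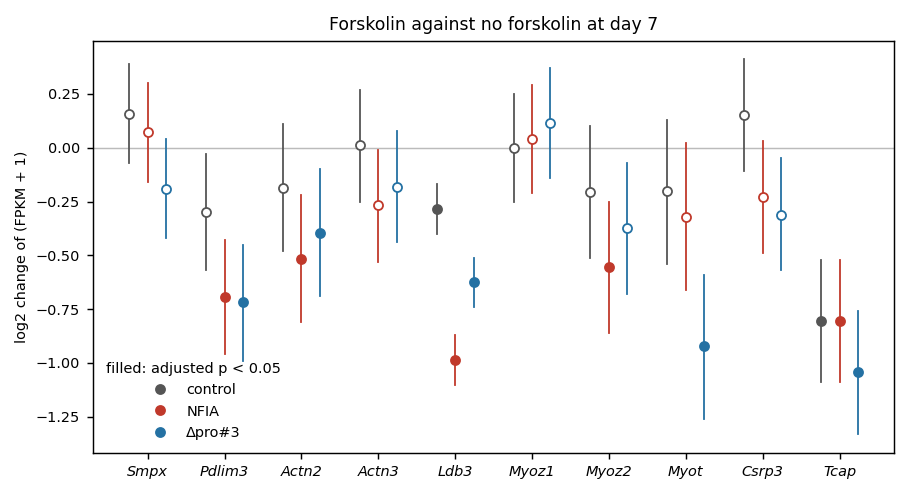
Change with forskolin at day 7 as the log2 change of FPKM + 1, with its 95% interval from limma, for the 10 genes, coloured by construct. Filled points have an adjusted p under 0.05. Ldb3 lies at -0.28, -0.98 and -0.62 in the 3 cell types, and Myoz1 lies near 0 in all of them.

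The differences between constructs remained after forskolin. With full-length NFIA all 8 tested members passed as lower, where 3.77% of all genes were, at 2.19% (Myoz1) to 19.3% (Ldb3) of control. Ldb3 now exceeded 3-fold, at 10.2, 10.6 and 10.3 against 51.0, 58.9 and 51.4 FPKM. The median of all genes was -0.17 in this comparison, and after scaling the log2 changes of the 8 ran from -4.47 (Tcap) to -2.08 (Ldb3). With the mutant, Csrp3 (15.3% of control) and Tcap (16.9%) passed again, where 0.685% of all genes were called lower. Myot was at 39.3, 26.97 and 24.97 FPKM in mutant cells against 22.3, 27.6 and 21.8 FPKM in control, with overlapping samples (adjusted p = 0.135), so the excess seen without forskolin was not detectable. Against full-length NFIA all 8 were higher in the mutant, where 2.89% of all genes were, and Ldb3 (1.65) fell under 3-fold after scaling (1.52).

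The order of the members by level differed between groups. In control at day 7 it ran from Csrp3 (367 FPKM) through Pdlim3, Actn3, Smpx, Myoz2, Tcap, Actn2, Ldb3 and Myoz1 to Myot (27.7 FPKM). Neighbours that overlapped were Actn3 and Smpx, Myoz2 and Tcap, and Myoz1 and Myot. With the mutant Smpx (329.5 FPKM) came first, Csrp3 fell to the fifth place, overlapping Actn2, and Myoz1 (10.2 FPKM) was last. With full-length NFIA Actn3 (32.9 FPKM) and Pdlim3 (29.96 FPKM) led, with overlapping samples. Ldb3 was the third, overlapping Csrp3, and Myoz1 (0.585 FPKM) was again last. At day 0 Ldb3 was the highest member in both construct groups and the third in control, below Pdlim3 and Actn3.

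Most of the other Z-disc genes were also lower with full-length NFIA at day 7. The list of 31 further genes was drawn broadly and includes Lmod2, Lmod3 and Jph2, which are not Z-disc proteins in the narrow sense. Of these 31 genes 29 were tested at day 7. With full-length NFIA 19 passed as lower (3.3% of all genes were) and 1 as higher (4.87% of all genes), with a median log2 change of -2.17. Ankrd2, a stretch-responsive ankyrin repeat protein, went from 254 ± 35.2 FPKM in control to 17.0 ± 1.04 FPKM (log2 change -3.82, adjusted p = 6.99e-10). Its relative Ankrd1 went from 850.4 ± 119 to 66.0 ± 18.7 FPKM (-3.70, adjusted p = 4.01e-08). The intermediate filament protein Synm rose, from 0.507 ± 0.0454 to 5.86 ± 0.591 FPKM (2.18, adjusted p = 5.69e-08). With the mutant limma called none of the 29, with a median of -0.14, where 0.503% of all genes were called lower and 0.933% higher. A count of 0 is thus near the background. By limma 19 had an unadjusted p under 0.05 and 18 an adjusted p under 0.05, 13 of these lower and 5 higher. Limma-voom called none as well. At day 0, 25 of these genes were tested, of which 13 passed as lower (2.78% of all genes) and 1 as higher (2.46% of all genes) with full-length NFIA and 10 as lower (1.32% of all genes) with the mutant.

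Of the 30 costamere genes, all tested, 5 passed as lower (3.3% of all genes were) and 1 as higher (4.87% of all genes) with full-length NFIA, with a median of -0.89. Cav3, the muscle caveolin, went from 44.0 ± 1.21 to 4.44 ± 0.769 FPKM (log2 change -3.06, adjusted p = 1.33e-09) and Cap2, an actin-regulating protein, from 45.7 ± 3.83 to 5.34 ± 0.233 FPKM (-2.88, adjusted p = 1.88e-10). Sgcd, a sarcoglycan, rose from 11.4 ± 1.43 to 43.1 ± 4.90 FPKM (1.83, adjusted p = 5.01e-08). Vinculin (Vcl, -0.88), talin 1 (Tln1, -0.67) and dystrophin (Dmd, -0.91) had adjusted p under 0.05 and did not reach 3-fold. With the mutant limma called none of the 30, where 0.503% of all genes were called lower and 0.933% higher, so a count of 0 is near the background. By limma 20 had an unadjusted p under 0.05 and 18 an adjusted p under 0.05, 10 of these lower and 8 higher. Limma-voom called none as well.

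Of 11 close relatives of the members, most of them also expressed outside muscle and some, such as Pdlim5 and Pdlim7, also found at the Z-disc, 1 passed as lower with full-length NFIA at day 7 (3.3% of all genes were), and the median was -0.28, beside -0.08 over all genes. The non-muscle alpha-actinins were nearly level. Actn1 was at 86.2 ± 7.51 FPKM in control and 70.8 ± 3.49 FPKM with full-length NFIA (log2 change -0.28), and Actn4 was at 103 ± 4.97 and 114 ± 4.92 FPKM (0.14). Csrp2, the smooth muscle relative of Csrp3, was at 57.4 ± 4.36 and 65.6 ± 2.97 FPKM (0.19). The gene that passed was the LIM protein Lmcd1, from 50.8 ± 5.65 to 4.22 ± 0.366 FPKM (-3.31, adjusted p = 5.18e-10). It passed as lower with the mutant as well (0.503% of all genes did), at 15.03 ± 0.989 FPKM (-1.69, adjusted p = 6.37e-07).

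**Figure D5:**
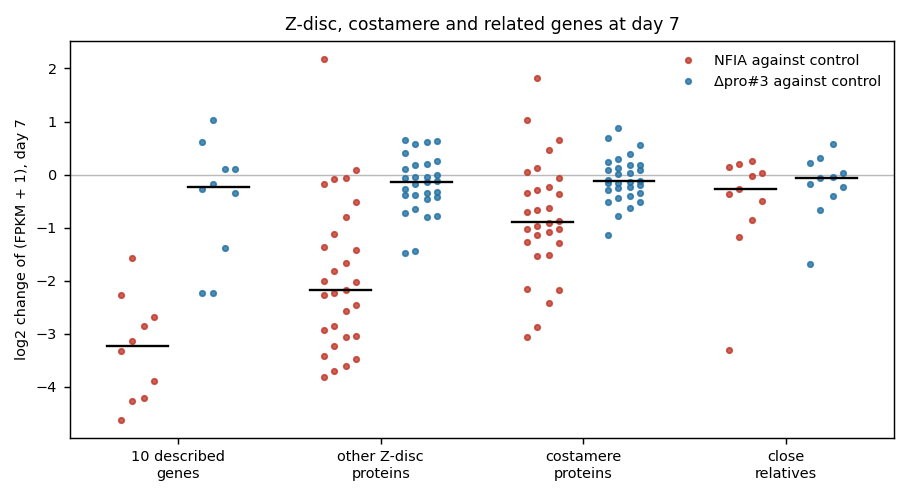
Log2 change of FPKM + 1 at day 7 for each gene of 4 lists, for full-length NFIA and for the Δpro#3 mutant against control. Points are genes, black lines are medians of the plotted genes. The first list holds all 10 described genes with Smpx and Pdlim3 included, so its line is not the median of the 8 tested members. The other Z-disc genes with full-length NFIA range from -3.82 (Ankrd2) to 2.18 (Synm), and the close relatives lie between -1.18 (Csrp1) and 0.26 (Pdlim2) apart from Lmcd1 at -3.31.

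The genes whose pattern over the 27 samples was most like that of each member were taken as the 3 with the highest Pearson r of log2(FPKM + 1) among 12380 genes, as a description, since all samples share the same 9 groups. For Smpx these were Trdn (0.995), Myoz2 (0.992) and Atcayos (0.992), and for Pdlim3 they were Actn3 (0.987), Chrnd (0.986) and Fgf11 (0.981). Actn2 was most like Cox6a2 (0.996), Myh1 (0.995) and Myh8 (0.994). Actn3 was most like Rbm24 (0.993), Ryr1 (0.990) and Ttc9 (0.987). Triadin (Trdn) and the ryanodine receptor Ryr1 belong to the calcium release machinery of muscle, and Myh1 and Myh8 are myosin heavy chains.

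Myoz2 was most like Lmod2 (0.998), Ankrd2 (0.996) and Mettl22 (0.994), and Myoz1 was most like Mybpc2 (0.996), Myf6 (0.995) and Atp1b2 (0.993). Myot was most like Mlip (0.994), Myh4 (0.989) and Ckmt2 (0.988). Csrp3 was most like Uqcc1 (0.992), Tm6sf1 (0.990) and Nmrk2 (0.987), and Tcap was most like Cyfip2 (0.988), Hspb8 (0.987) and Myh6 (0.987). Ldb3 had its nearest gene in Cavin4 (0.981), a caveola protein of the sarcolemma, followed by Dffa (0.969) and Pacsin3 (0.966). No other member was among the first 100 genes for Ldb3, the nearest being Myoz1 at place 125 (0.907). Every other member had at least 1 of the 10 among its first 100. This includes Smpx and Pdlim3, which were chosen by changes between constructs in these same samples. Pdlim3 was the only member among the first 100 for Actn3. Atcayos is named as the opposite strand of Atcay, and fragments were counted by strand.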

How the data were processed

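Polyadenylated RNA of 27 C2C12 samples (9 groups of 3) was sequenced from stranded libraries. The authors aligned reads to mm9 with STAR 2.5.3a, discarded reads that mapped to several places, took STAR's strand-matched fragment count of each gene and deposited FPKM per gene, without scaling between samples. Samples were grouped by their titles. The FPKM were whole multiples of 1 fragment (100% of the values within 0.01), so fragments were worked back. Depth was 9567769 to 27230965 fragments per sample, and 3 fragments over a group were taken as the floor of detection.

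Log2(FPKM + 1) was fitted with limma 3.58.1 (R 4.3.3, trend moderation, 2-sided, Benjamini-Hochberg over all genes with a mean of 0.5 FPKM or more). Each time point was fitted on its 9 samples, and day and forskolin changes on 18. Called meant an adjusted p under 0.05 and, between constructs or days, more than 3-fold. The fit was tested on simulated data. Summaries used Python 3.11.15. Of the list symbols, 2 were matched by RefSeq synonyms. The members and lists were chosen with earlier results of these data known. Named genes were the members, the called genes of each further list with the largest 2 rises and 2 falls at day 7 with full-length NFIA, and the 3 genes most like each member. Actn1, Actn4, Csrp1, Csrp2, Pdlim2, Vcl, Tln1 and Dmd were named after their values were seen.

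Alternatives were a pseudocount of 0.1, median-ratio scaling, no filter, a minimum mean of 5 FPKM, fits of the compared groups only, no trend, a replicate block, limma-voom on fragments, ratios of FPKM + 1, and leaving out each sample. Same-numbered samples did not deviate together (mean correlation of deviations 0.0139 at day 0, -0.0314 at day 7 and -0.00195 after forskolin).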

Additional observations from a re-analysis of the deposited data

Results flagged for a closer look

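The rise from day 0 to day 7 differed from that in control, by the test of the difference itself, in all 8 tested members with either construct on log2(FPKM + 1), where 71.2% and 44.7% of all genes passed the same test. This count and several directions changed with the pseudocount or with limma-voom. With full-length NFIA 7 members passed with a pseudocount of 0.1 and 6 with limma-voom, and with the mutant 5 and 4. With full-length NFIA the log2 differences were -1.06 for Actn2, 1.36 for Actn3, -1.57 for Ldb3, -3.84 for Myoz1, -1.60 for Myoz2, -2.87 for Myot, -2.93 for Csrp3 and -4.17 for Tcap. With the Δpro#3 mutant they were 0.95 for Actn2, 3.24 for Actn3, -0.74 for Ldb3, -1.08 for Myoz1, 1.17 for Myoz2, 1.01 for Myot, -1.08 for Csrp3 and -1.80 for Tcap. With limma-voom the sign turned for Actn2, Myoz2 and Csrp3 with full-length NFIA and for Myoz1, Myot, Csrp3 and Tcap with the mutant, and with a pseudocount of 0.1 for Actn2 and Myoz2 with full-length NFIA and Csrp3 with the mutant. Actn3 and Ldb3 kept their direction under these settings.

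The response to forskolin differed from that in control in Ldb3, by -0.70 with full-length NFIA and by -0.34 with the mutant on the log2 scale. It was 1 of 8 members for either construct, where 21.5% and 2.5% of all genes were called lower. The mutant call was lost without control replicate 1 at day 7 (-0.29, limma adjusted p = 0.0589).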

How the results depend on the processing

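Among the counts of members called, 145 under other settings stayed within 1.5 times the reported count and 7 did not. At day 0, the count for the mutant against control went from 1 to 3 with a pseudocount of 0.1 and to 3 with limma-voom (Csrp3 and Myoz2 added), that for full-length NFIA against control from 2 to 1 at a minimum mean of 5 FPKM (fewer genes tested), and that for the mutant against full-length NFIA from 0 to 2 with limma-voom. The difference in differentiation of the mutant from control went from 8 to 5 with a pseudocount of 0.1 and to 4 with limma-voom, and its difference in forskolin response from 1 to 2 with limma-voom.

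Counts over all genes past 3-fold rose with a pseudocount of 0.1 and with limma-voom, at day 0 from 634 to 1082 and 1131 (full-length NFIA against control), from 264 to 553 and 621 (mutant against control) and from 248 to 540 and 587 (mutant against full-length NFIA), and at day 7 from 1007 to 1569 and 1640, from 177 to 417 and 479 and from 776 to 1170 and 1265. After forskolin they went from 972 to 1464 and 1534, from 188 to 400 and 465 and from 751 to 1167 and 1238, and for day 7 against day 0 from 831 to 1418 and 1566 in control, from 1252 to 1886 and 2013 with full-length NFIA and from 849 to 1407 and 1541 with the mutant. At a minimum mean of 5 FPKM the day 0 counts were 401, 165 and 164.

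The differences in differentiation reversed in some members that were near 0 at day 0. With a pseudocount of 0.1, for full-length NFIA minus control, Smpx came to 0.47, Actn2 to 1.33 (adjusted p = 0.000179) and Myoz2 to 1.17 (adjusted p = 0.000389), and for the mutant Csrp3 came to 0.45. With limma-voom the values for full-length NFIA were 2.36 (Smpx), 3.51 (Actn2), 3.405 (Myoz2) and 1.13 (Csrp3), and for the mutant 0.82 (Myoz1), -0.30 (Myot), 0.97 (Csrp3) and 0.076 (Tcap). Values near 0 also changed sign. The Tcap difference in forskolin response with full-length NFIA (0.001) was -0.29 with a pseudocount of 0.1 and -0.28 with limma-voom. Ldb3 between full-length NFIA and control at day 0 (0.003) was -0.004 with scaling and -0.002 with limma-voom. For the ratios within the paired families, 5 values moved when 1 was added to each FPKM. The ratio of Actn3 to Actn2 went to 29.6 (control at day 0). That of Myoz1 to Myoz2 went to 0.394 (control at day 0), 0.127 and 0.113 (full-length NFIA and mutant at day 7) and 0.192 (full-length NFIA with forskolin). The cause was not tested.

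Leaving out 1 sample gave 7 to 8 members for full-length NFIA against control at day 7. The forskolin responses gave 5 to 7 with full-length NFIA and 4 to 7 with the mutant. The differences in forskolin response gave 1 to 2 for full-length NFIA (2 without control replicate 3, NFIA replicate 1 or NFIA replicate 2 at day 7) and 0 to 2 for the mutant (0 without control replicate 1 at day 7 and 2 without mutant replicate 1 with forskolin). The counts of the other comparisons were the same in every such fit. Small log2 values crossed 0, with ranges of -0.014 to 0.017 (Ldb3, full-length NFIA against control at day 0), -0.044 to 0.195 and -0.202 to 0.021 (Actn3, mutant against control at day 7 and after forskolin), -0.029 to 0.050 and -0.114 to 0.117 (Actn3 and Myoz1, forskolin in control) and -0.009 to 0.110 (Myoz1, forskolin with full-length NFIA). For the difference in forskolin response with full-length NFIA they were -0.077 to 0.154 (Myoz1), -0.255 to 0.003 (Myot) and -0.137 to 0.145 (Tcap), and with the mutant -0.002 to 0.229 (Myoz1). The replicate block changed 1 count, from 5 to 6 for forskolin with full-length NFIA (Actn3 added), and the numbers do not pair the samples. Depth limits Myoz1, Myoz2, Myot, Smpx and Csrp3 at day 0 with full-length NFIA, which rested on 0 to 1 fragments, and Actn2 on 3.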
